A study of Mus musculus with 6 samples.

Results

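Matrix metalloproteinases (MMPs) and their inhibitors, the TIMPs, were followed in whole pancreata that had lost the acinar transcription factor PTF1A. The set was chosen by symbol and holds 10 genes, namely Mmp2, Mmp7, Mmp9, Mmp11, Mmp14, Mmp15, Mmp23, Timp1, Timp2 and Timp3. Of these, 6 are among the 10245 genes measured, and Mmp7, Mmp9, Mmp11 and Timp1 were not analysed here. RNA-seq libraries came from 3 control mice of genotype Ptf1a(CreER/+), aged 4 months, and 3 Ptf1a cKO mice of genotype Ptf1a(CreER/fl), aged 5 months. All 6 mice had been given tamoxifen (0.25 mg/g by gavage in corn oil on 3 days) and were killed on day 14, and each group held 1 male (control replicate 1 and Ptf1a cKO replicate 2) and 2 females. The CreER allele is a knock-in at Ptf1a that removes its function, so the controls carried a single working copy. Cre acts in cells that express Ptf1a, the deletion does not reach every acinar cell, and age differs with genotype, so effects of age and genotype cannot be told apart. The comparison asks which MMP and TIMP transcripts change when the acinar program is lost.

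MMPs are zinc-dependent proteinases that are made as inactive precursors and cut collagens and other matrix proteins once their propeptide is removed. TIMPs bind the active site and block it. MMP14, which sits in the plasma membrane, uses TIMP2 as an adaptor to capture and activate pro-MMP2, so TIMP2 both enables and restrains this step. In the pancreas, stellate cells and fibroblasts are a known source of MMP2 and of TIMPs.

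The values are normalized read counts that the authors had placed on a common scale. Ptf1a was found at 566, 601 and 652 normalized counts in the control libraries and at 19.8, 70.1 and 10.2 in the Ptf1a cKO libraries. A list of digestive enzymes was drawn up that also holds other secretory or granule proteins, such as Spink3, Zg16 and the Reg genes. It is called digestive enzymes throughout. Pancreatic identity was clear, since this list took 83.8% to 86.3% of the counts on named genes in a control library. In a Ptf1a cKO library it took 39.6% to 66.2%. Ptf1a cKO replicate 2, the male of that group, kept both the most Ptf1a and the highest digestive enzyme share (66.2%). The number of reads behind a value could not be recovered from the table, so error was measured as the spread among the 3 mice in each group. Each library is 1 mouse, and the smallest two-sided p that an exact permutation test can reach with 3 mice per group is 0.10. Fold changes are from limma on the log2(value + pseudocount) scale, which understates changes of low genes, and a gene is called when its Benjamini-Hochberg adjusted p over all genes is under 0.05.

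Promoter windows from RefSeq (GRCm38.p6, 250 bases before to 50 after the start) were used for 8 of the 10 genes, and none was used for Mmp2 and Mmp9. The 4 shown are those of the membrane proteinases that rose (Mmp14, Mmp15) and of the inhibitors that were not called (Timp2, Timp3). Capitals mark matches, on either strand, to an E-box of a kind that PTF1 can bind (CACCTG) or to a GC box (GGGCGG), 2 of the 4 motifs searched. A match to these letters alone does not show binding by PTF1, which was not measured.
Mmp14, chr14:54431348-54431647, plus strand: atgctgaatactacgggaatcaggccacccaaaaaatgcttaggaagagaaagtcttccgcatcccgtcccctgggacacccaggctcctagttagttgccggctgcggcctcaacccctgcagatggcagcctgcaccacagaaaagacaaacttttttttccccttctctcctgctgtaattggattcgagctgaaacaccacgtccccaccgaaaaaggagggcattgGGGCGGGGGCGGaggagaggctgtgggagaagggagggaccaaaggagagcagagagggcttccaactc
Mmp15, chr8:95352046-95352345, plus strand: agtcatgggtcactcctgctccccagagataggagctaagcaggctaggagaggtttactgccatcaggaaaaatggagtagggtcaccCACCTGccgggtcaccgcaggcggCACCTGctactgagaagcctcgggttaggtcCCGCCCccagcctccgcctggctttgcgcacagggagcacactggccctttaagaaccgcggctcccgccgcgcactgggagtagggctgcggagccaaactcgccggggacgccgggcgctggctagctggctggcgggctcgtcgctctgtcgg
Timp2, chr11:118355362-118355661, minus strand: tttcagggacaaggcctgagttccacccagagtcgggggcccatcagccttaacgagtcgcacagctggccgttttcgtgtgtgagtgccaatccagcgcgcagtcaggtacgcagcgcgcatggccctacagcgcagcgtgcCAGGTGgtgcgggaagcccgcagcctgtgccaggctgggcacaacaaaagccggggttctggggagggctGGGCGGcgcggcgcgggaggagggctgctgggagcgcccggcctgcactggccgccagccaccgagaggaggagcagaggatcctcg
Timp3, chr10:86300162-86300461, plus strand: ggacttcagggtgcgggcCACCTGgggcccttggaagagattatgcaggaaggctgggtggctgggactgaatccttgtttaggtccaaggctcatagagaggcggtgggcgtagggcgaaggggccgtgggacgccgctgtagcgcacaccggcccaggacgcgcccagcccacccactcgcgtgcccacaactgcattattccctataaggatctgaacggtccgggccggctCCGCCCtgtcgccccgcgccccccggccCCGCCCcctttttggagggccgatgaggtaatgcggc
CACCTG was found at -161 and -137 from the start of Mmp15, at -107 in Timp2 and at -232 in Timp3. The Mmp14 window had no match to it and carried 2 adjacent GC boxes, at -19 and -13. A GC box stood at -106 in Mmp15 and at -37 in Timp2, and Timp3 had matches at -15 and 14. No AP-1 site (TGANTCA) and no TATA box (TATAAA) was found in these windows, and no match overlapped that of another motif. Among all 32851 promoter windows, 20.2% hold CACCTG, 35.7% GGGCGG, 7.81% TGANTCA and 13.6% TATAAA. Thus CACCTG stood in the windows of a gene that rose and of both inhibitors that were not called.

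A group of 3 proteinase genes was higher in Ptf1a cKO pancreata, and neither measured TIMP was called. Mmp2, Mmp14 and Mmp15 rose about 1.88-fold to 2.29-fold by the ratio of group means, while Timp2 and Timp3 differed by 1.14-fold and 1.07-fold. Thus 3 of the 6 genes were called higher and 0 lower, where 33.9% of all genes were called, 17.1% higher and 16.8% lower. For 3 of the 6 every Ptf1a cKO value lay above all controls. Of all genes 50.8% had groups that did not overlap, 26.5% with the Ptf1a cKO values above and 24.3% below. This division held under the scalings to the same 75th percentile and to the median of ratios. It did not hold with every library brought to an equal total, a scaling that puts the median gene at a log2 fold change of 1.48 and calls all 6 genes higher, nor with the same total without digestive enzymes, where Mmp15 was not called.

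**Figure D1:**
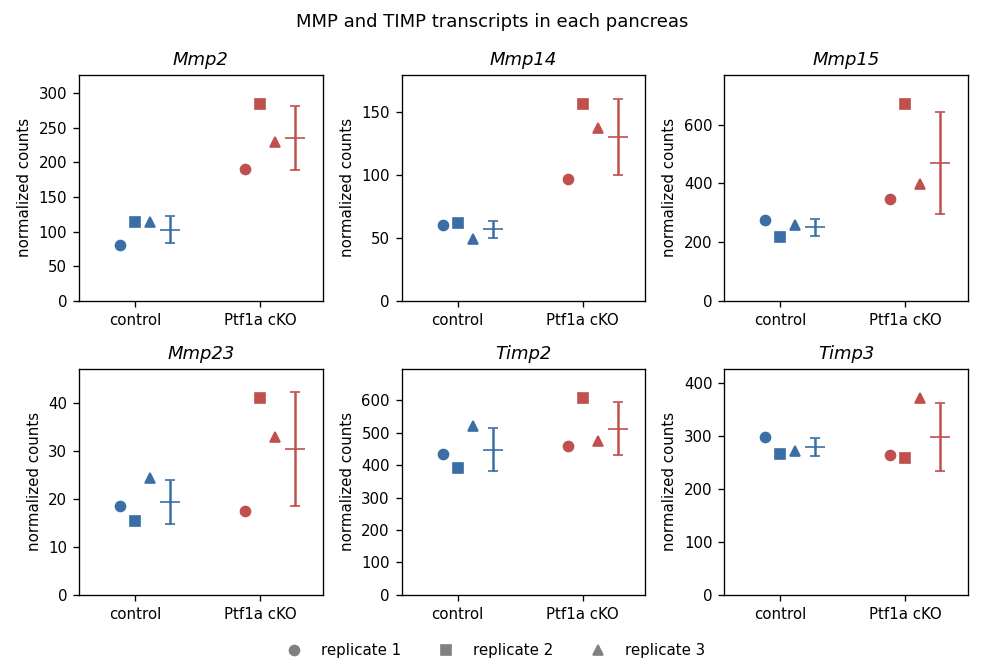
Normalized counts of the 6 measured MMP and TIMP genes in each of the 3 control (blue) and 3 Ptf1a cKO (red) pancreata, with each group's mean and SD beside the points. All 3 Ptf1a cKO points of Mmp2, Mmp14 and Mmp15 lie above the controls, whereas Mmp23, Timp2 and Timp3 overlap between the groups, on the authors' scaling.

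Mmp2 encodes gelatinase A, which degrades denatured collagen and type IV collagen of basement membranes. Control libraries held 80.3, 114 and 114 normalized counts of Mmp2, and Ptf1a cKO libraries 191, 284 and 230.1. All 3 Ptf1a cKO values were above all 3 controls, and replicate 2 was the highest. The mean rose from 103 ± 19.3 to 235 ± 46.5 (SD, n = 3 each). In limma this was 1.17 on the log2 scale with a standard error of 0.18 (adjusted p = 0.0017). Ranked by signed log2 fold change, so that lowered genes come last, this lies above 94.4% of all genes. With each library left out in turn it stayed between 1.006 and 1.305 and was called in all 6 fits.

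Mmp14 encodes a membrane-type MMP that activates pro-MMP2 and cuts fibrillar collagen at the cell surface. It was found at 60.2, 61.6 and 49.3 normalized counts in control libraries and at 97.0, 156 and 137 in Ptf1a cKO libraries. As for Mmp2, the groups did not overlap and the highest value was in Ptf1a cKO replicate 2, the library of its group with the most Ptf1a and digestive enzyme transcripts. The part of that difference between mice in the MMP values was not tested. In limma the difference was 1.12 on the log2 scale with a standard error of 0.19 (adjusted p = 0.00229), from a mean of 57.0 ± 6.73 to 130.0 ± 30.2 (SD, n = 3 each). With each library left out in turn it was called in all 6 fits, between 0.981 and 1.315.

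Mmp15, a further membrane-type MMP, had 275, 218 and 258 normalized counts in control libraries and 346, 669.6 and 397 in Ptf1a cKO libraries. The groups did not overlap, but the Ptf1a cKO mice spread 1.93-fold between the lowest and the highest, with replicate 2 well above the others. The mean went from 250.5 ± 29.4 to 471 ± 174 (SD, n = 3 each), which limma put at 0.85 on the log2 scale with a standard error of 0.22 (adjusted p = 0.0186). Without Ptf1a cKO replicate 2 the change was 0.565 (adjusted p = 0.0148, limma), and without control replicate 2 it was 0.75 and was not called (adjusted p = 0.0707, limma). With the same total without digestive enzymes it was 0.67 (adjusted p = 0.0711, limma).

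Mmp23, which encodes a small membrane-anchored MMP that convertase cleavage releases from the membrane, was near the lower limit of the table. The highest value of any gene over the 6 libraries is never under 27.6 normalized counts, and Mmp23 reaches this only in Ptf1a cKO libraries. Its values were 18.5, 15.3 and 24.3 in controls and 17.5, 40.9 and 32.9 in Ptf1a cKO. Replicates 2 and 3 were above the controls, and replicate 1 lay among them. The log2 fold change of 0.52 was not called (adjusted p = 0.275, limma) and had a 95% interval from -0.27 to 1.31.

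Timp2, the inhibitor that also serves the activation of pro-MMP2, had 433, 390.3 and 519.7 normalized counts in controls and 458, 606 and 473 in Ptf1a cKO. The ranges overlap, and only replicate 2 exceeded every control. Limma gave 0.19 on the log2 scale with a standard error of 0.15 (adjusted p = 0.353) and a 95% interval from -0.15 to 0.53. Timp3, a matrix-bound inhibitor that also blocks several ADAM proteinases, had 299, 267 and 272 normalized counts in controls and 265, 259 and 372 in Ptf1a cKO. Here replicate 3 was the high library, and replicates 1 and 2 were below every control. Limma gave 0.08 on the log2 scale with a standard error of 0.15 (adjusted p = 0.72) and an interval from -0.26 to 0.42, and it turned to -0.089 without Ptf1a cKO replicate 3. These intervals do not reach a doubling on the authors' scaling, but a smaller change in either direction remains possible.

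The balance of proteinase and inhibitor was compared as a ratio within each library, a quantity that library scaling hardly moves. The log2 ratio of Mmp2 to Timp2 was -2.38, -1.75 and -2.16 in controls and -1.25, -1.09 and -1.03 in Ptf1a cKO. All Ptf1a cKO ratios were above all controls, with a difference of 0.98. The log2 ratio of Mmp14 to Timp2 was -2.78, -2.60 and -3.31 in controls and -2.20, -1.93 and -1.76 in Ptf1a cKO, a difference of 0.93. For both ratios the exact permutation test gave a two-sided p of 0.10, the smallest that 3 against 3 allow, and 0.15 when adjusted over the 3 ratios. Hence neither ratio could pass a threshold of 0.05 in the exact test. Each difference is the log2 change of the proteinase less that of Timp2 (0.19, not called). On the authors' scaling, 26.5% of all genes had every Ptf1a cKO value above all controls. The share of all genes whose ratio to Timp2 did so was not computed. The log2 ratio of Mmp2 to Mmp14 was 0.80 ± 0.38 in controls and 0.85 ± 0.11 in Ptf1a cKO (SD, n = 3 each), and its groups overlapped (exact permutation test, two-sided p = 0.90). These ratios were not corrected for transcript length, which does not touch their differences between groups. The ratio of Mmp9 to Timp1 was not analysed here.

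Levels of different genes were set side by side per kilobase of annotated exon (GENCODE M21, GRCm38). In controls the mean level ran from Timp2 (115 normalized counts per kb) through Mmp15 (46.4), Timp3 (34.3), Mmp2 (30.4) and Mmp14 (9.57) to Mmp23 (8.28). The ranges of Timp3 and Mmp2 overlapped there, as did those of Mmp14 and Mmp23. In Ptf1a cKO the order was Timp2 (131), Mmp15 (87.2), Mmp2 (69.7), Timp3 (36.7), Mmp14 (21.8) and Mmp23 (13.0). Mmp2 now lay at 56.7 to 84.2 per kb in single libraries, above the 31.8 to 45.7 of Timp3. Timp2 and Mmp15 overlapped in Ptf1a cKO, as did Mmp15 and Mmp2, and Mmp14 and Mmp23. The reads were counted on another build, so these lengths are an approximation.

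Markers of stroma moved in the same libraries. Of 15 fibroblast and stellate genes listed, 12 are in the table, 10 of these were called higher and 0 lower (17.1% and 16.8% of all genes), and their median log2 fold change was 1.10, against 0.04 over all genes. Their summed level was 1569, 1345 and 1576 normalized counts in controls and 2508, 3942 and 3277 in Ptf1a cKO. Ptf1a cKO replicate 2 was thus highest in sum and replicate 1 lowest, the order of Ptf1a cKO libraries seen for Mmp2, Mmp14 and Mmp15. Single genes did not all keep this order. Pdgfra, Pdgfrb, Col6a1, Col6a2, Lum, Dpt and Gli1 were highest in replicate 2, and Des, Acta2, Thy1, Vim and Cygb in replicate 3. Col6a1 and Col6a2, at 899.5 and 928 normalized counts, were the largest values of the list in replicate 2. The order of the sum therefore leans on these genes, and a sum without them was not computed. Like Mmp23, Gli1 reaches the lower limit of the table only in Ptf1a cKO. In whole tissue, more cells of a type and more RNA per cell cannot be told apart.

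Each gene was therefore also expressed relative to the mean log2 value of the 12 fibroblast and stellate genes in its own library. On this scale Mmp2 was 0.20 ± 0.30 in controls and 0.34 ± 0.12 in Ptf1a cKO, Mmp14 -0.60 ± 0.21 and -0.51 ± 0.12, and Mmp15 1.47 ± 0.13 and 1.29 ± 0.36 (SD, n = 3 each). The groups overlapped for all 3, with differences of 0.14, 0.09 and -0.18. Timp2 went from 2.29 ± 0.16 to 1.46 ± 0.17 and Timp3 from 1.63 ± 0.08 to 0.68 ± 0.31 (SD, n = 3 each). All Ptf1a cKO values of both inhibitors lay below all controls, by -0.84 and -0.95 on average (exact permutation test, two-sided p = 0.10 for each, and 0.20 adjusted over the 6 genes). The 3 Ptf1a cKO values of Mmp23 were below the controls as well, with a difference of -0.51 and the same p-values. The list itself rose, with a median log2 fold change of 1.10 against 0.04 over all genes. A gene of constant level therefore falls on this scale. In a limma fit on this scale, added after the data had been seen, 82.1% of all genes were called. The share of all genes whose groups did not overlap on it was not computed. Thus, beside the stromal markers, the difference of Mmp14 was smaller than the SD of either group. That of Mmp2 (0.14) was under the control SD (0.30) but not the Ptf1a cKO SD (0.12). The differences of Timp2 and Timp3 were larger than both SDs, although the exact test of 3 against 3 cannot go under 0.10. Without the reference these genes changed by 0.19 and 0.08 on the log2 scale. Their fall here is therefore the rise of the list, less these small changes.

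**Figure D2:**
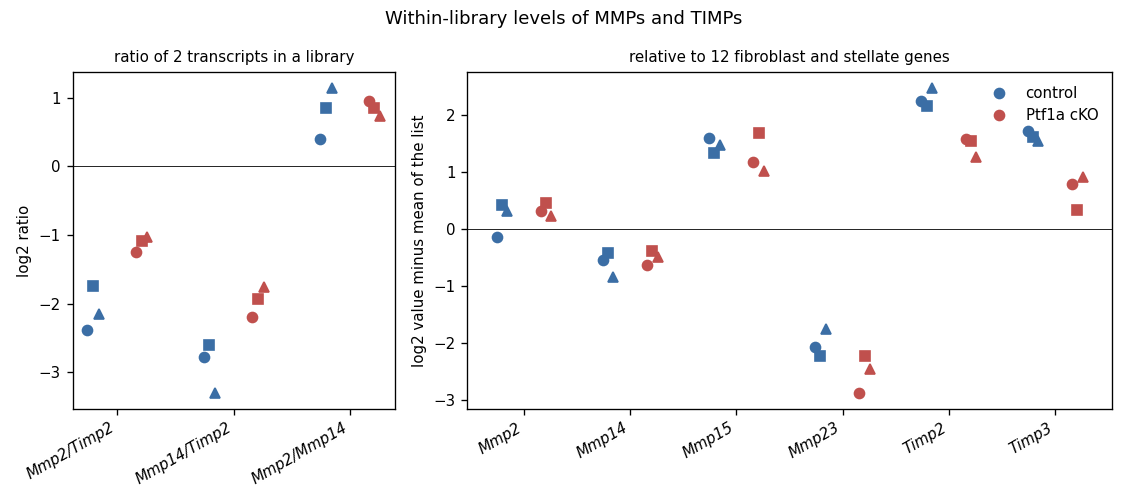
Log2 ratios of MMP and TIMP transcripts within each library (left) and log2 values less the mean of 12 fibroblast and stellate genes (right), with 1 point per pancreas, control in blue and Ptf1a cKO in red. The Mmp2/Timp2 and Mmp14/Timp2 ratios are higher in every Ptf1a cKO library, and the share of all genes for which this holds was not computed. Relative to the stromal genes, Timp2 and Timp3 are lower in every Ptf1a cKO library while Mmp2, Mmp14 and Mmp15 overlap. The stromal genes rose (median log2 fold change 1.10), so a gene of constant level falls in the right panel.

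Other cell types were followed with the same kind of list, and their counts stand beside 17.1% of all genes called higher and 16.8% lower. Of 18 leukocyte genes, 11 are in the table and 7 were called higher, and their sum went from 485 to 783 normalized counts in controls to 1223 to 2765 in Ptf1a cKO. In contrast to the MMPs, it was highest in Ptf1a cKO replicate 3 and lowest in replicate 2, and Cd79b, a part of the B cell receptor, was at 0 in replicate 1. Of 9 endothelial genes 1 was called higher, and the sums overlapped (999 to 1229 and 1045 to 1281). Of 10 ductal genes 6 were called higher, and their sum (5838 to 6589.6 in controls, 28611 to 112289.8 in Ptf1a cKO) was lowest among the Ptf1a cKO libraries in replicate 2. Spp1 made up 73.3% to 93.8% of that sum in Ptf1a cKO. Without Spp1 the other 9 ductal genes summed to 4332, 4631 and 4512 in controls and to 7351, 7641 and 6949.7 in Ptf1a cKO, where replicate 2 was then the highest. The 10 endocrine genes and the 4 measured fat genes overlapped in sum, and 0 and 1 of them were called higher. Among the genes called higher in these lists, Cd14, Cldn4 and Cfd reach the lower limit of the table only in Ptf1a cKO libraries. The part of any of these cell types in the MMP values was not tested.

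**Figure D3:**
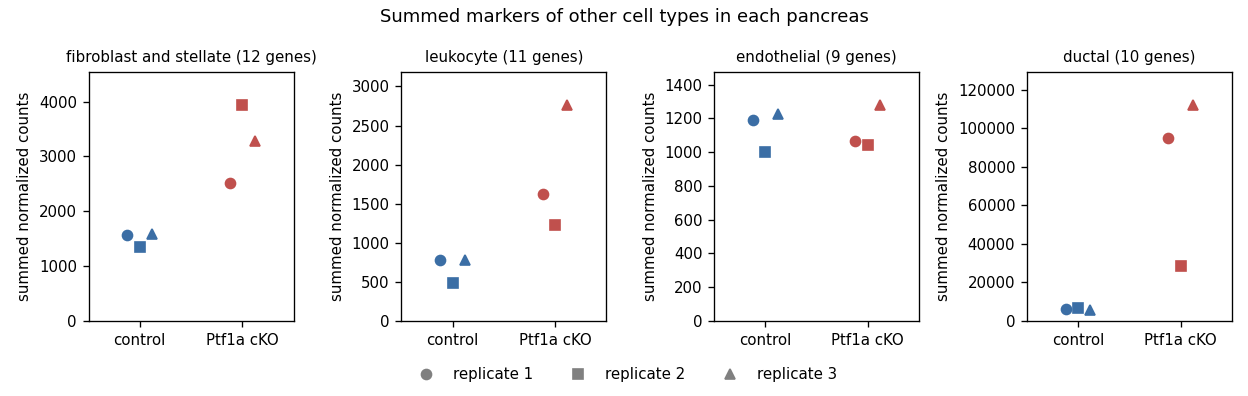
Summed normalized counts of fibroblast and stellate, leukocyte, endothelial and ductal marker genes in each pancreas, with a symbol for each replicate. Among Ptf1a cKO libraries, replicate 2 is highest for the fibroblast and stellate genes (3942) and lowest for the leukocyte genes (1223). It is also lowest for the ductal genes (28611), but without Spp1 it is the highest of the 3 (7641). Des, Acta2, Thy1, Vim and Cygb of the fibroblast and stellate genes are instead highest in replicate 3. Col6a1 (899.5) and Col6a2 (928) are the largest values of that list in replicate 2, and the sum without them was not computed.

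Further genes of MMP biology were taken from 5 lists, of which 53 of 92 genes are in the table. Over these lists 27 genes were called higher and 5 lower, or 32 in all. Of all genes 33.9% were called, 17.1% higher and 16.8% lower. Among the list genes called higher, Pcsk5, Reck, Vcan and Etv5 reach the lower limit of the table only in Ptf1a cKO libraries. Their place in these counts depends on their values there. Without control replicate 2 the lists had 21 genes called. Of 17 other MMP and TIMP genes, only Mmp19 is in the table. It had 18.4, 14.1 and 16.6 normalized counts in controls and 20.8, 36.4 and 30.1 in Ptf1a cKO, and although the groups did not overlap it was not called (log2 fold change 0.69, adjusted p = 0.117, limma). Like Mmp23, it reaches the lower limit of the table only in Ptf1a cKO.

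Genes that activate, anchor or clear MMPs were mostly higher or not called. Of 24 listed, 15 are in the table, with 7 called higher and 1 lower, beside 17.1% and 16.8% of all genes. Their median log2 fold change was 0.44, against 0.04 over all genes. Furin, a convertase that removes the propeptide of membrane-type MMPs, had 1039, 1053 and 1043 normalized counts in controls and 5643, 3502 and 5243 in Ptf1a cKO (log2 fold change 2.16, adjusted p = 9.09e-05, limma). Its groups were far apart, and the lowest Ptf1a cKO value was in replicate 2, where Mmp14 and Mmp15 were highest. Pcsk6, another convertase, fell by 0.74 on the log2 scale (adjusted p = 0.00262, limma), from 204 ± 19.2 to 121 ± 11.9 normalized counts (SD, n = 3 each).

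Thrombospondins bind MMPs and promote their uptake by cells. Thbs1 was found at 127, 225 and 167 normalized counts in controls and at 8755, 7183 and 3804 in Ptf1a cKO, a log2 fold change of 5.18 (adjusted p = 1.85e-05, limma). Every Ptf1a cKO library was far above every control. Thbs2 rose by 0.91 on the log2 scale (adjusted p = 0.00976, limma). A pair of genes was singled out after their values were seen. Lrp1, the endocytic receptor that clears such complexes, rose by 0.76 (adjusted p = 0.0116, limma). Reck, a membrane-anchored MMP inhibitor, rose by 0.91 (adjusted p = 0.0433, limma), from 14.9 ± 2.87 to 30.8 ± 4.52 normalized counts (SD, n = 3 each). Like Mmp23, Reck reaches the lower limit of the table only in Ptf1a cKO libraries. Its presence among the measured genes thus depends on its values there, and its rise is a description only.

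ADAM and ADAMTS proteinases, several of which TIMP3 can inhibit, were called in both directions. Of 18 listed, 12 are in the table, 5 were called higher and 3 lower (median 0.27 on the log2 scale), where 17.1% of all genes were called higher and 16.8% lower. Adamts15, which cleaves proteoglycans such as versican, averaged 26.9 ± 6.57 normalized counts in controls and 102 ± 20.4 in Ptf1a cKO (SD, n = 3 each). It rose by 1.80 on the log2 scale (adjusted p = 4.54e-04, limma). Adam15 and Adam9 rose by 0.71 and 0.64. Adamts9, a proteoglycan-cleaving enzyme, fell by 1.07 (adjusted p = 0.00259, limma). Adam10, a sheddase of Notch and other membrane proteins, fell by 0.51, and Adamts1 by 0.57.

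**Figure D4:**
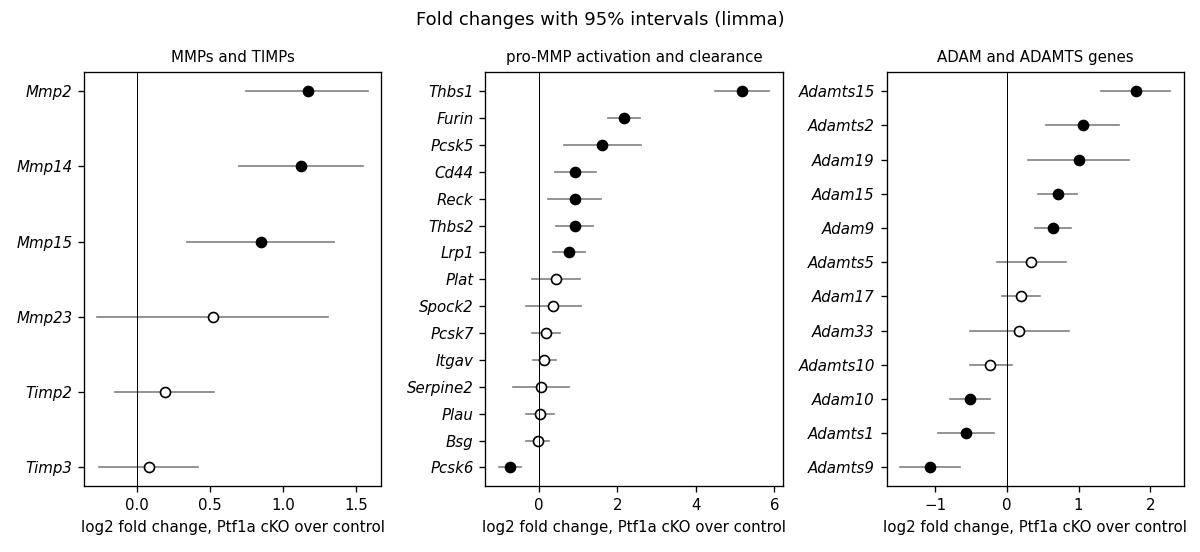
Log2 fold changes (Ptf1a cKO over control, limma) of the MMP and TIMP genes, of genes for pro-MMP activation and clearance and of ADAM and ADAMTS genes, with 95% intervals as lines and filled points for genes called at an adjusted p under 0.05. On the authors' scaling Mmp2 (1.17), Mmp14 (1.12) and Mmp15 (0.85) are called and Timp2 (0.19) and Timp3 (0.08) are not, whereas the scaling to the same total calls all 6 genes of the left panel higher.

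Matrix proteins that MMPs cut were listed as well. Of 17, 14 are in the table, 10 were called higher and 0 lower, beside 17.1% and 16.8% of all genes, and the median log2 fold change was 1.10. Col1a1, a chain of fibrillar collagen type I and a target of MMP14, had 229, 216 and 284 normalized counts in controls and 584, 1419 and 1033 in Ptf1a cKO, a log2 fold change of 1.96 (adjusted p = 0.00102, limma). Its Ptf1a cKO libraries kept the order seen for Mmp2, with replicate 2 highest and replicate 1 lowest. Col1a2 rose by 1.66 and the proteoglycan Dcn by 0.74. The main basement membrane chains, singled out after their values were seen, were not called. Col4a1 changed by 0.60 (adjusted p = 0.125, limma) and Col4a2 by 0.34 (adjusted p = 0.343, limma), and their groups overlapped.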

How the data were processed

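Whole pancreas RNA of 3 control and 3 Ptf1a cKO mice was sequenced as single-end reads. Per the labels, reads were aligned to mm9 with TopHat2 2.0.4 and counted with HTSeq 0.6.0. The authors deposited a table of signal values, namely read counts normalized across libraries (the paper's analysis used edgeR with TMM), with 10245 genes. Its 3 entries that name no gene (75.7% to 82.6% of a library) were left out. The annotation used for counting is not given in the sources used here. Whole reads could not be recovered, so no count model was fitted and counting error is unknown.

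Values were divided by 13.6393 for all libraries, and log2(value + 0.25) was fitted with limma 3.58.1 in R 4.3.3 (mean-variance trend, no covariate, two-sided, Benjamini-Hochberg over all genes). The fit was checked on simulated data. Exact permutation tests, ratios and lists were computed in Python 3.11.15. Named genes were the members and, in each list, the 3 with the smallest adjusted p per direction. Members and lists were chosen with earlier results of these data known. Alternatives were other pseudocounts, a filter, scalings, limma options, a replicate block, a sex term, a threshold of 0.01 and leaving out each library. A limma fit relative to a reference gene or list was added after the data had been seen. The value of a leukocyte marker is not reported here.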

Additional observations from a re-analysis of the deposited data

How the results depend on the processing

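The log2 fold changes of Mmp2 and Mmp14 stayed called under every alternative pseudocount, filter, scaling, limma option, threshold and left-out library, and 0 MMP or TIMP genes were called lower under any of them (at an unadjusted p under 0.05, likewise 0 in the reported fit). With the same total for every library, 9716 of all genes, 6 MMP and TIMP genes and 52 genes of the 5 lists were called, since this scaling moves the median gene to 1.48. Relative to that median, Mmp2 and Mmp14 changed by 1.14 and 1.07 and Timp2 and Timp3 by 0.20 and 0.08. At a threshold of 0.01, 1794 of all genes and 17 of the lists were called, and Mmp15 was not. With single libraries left out, between 2 and 3 MMP and TIMP genes, 21 and 32 genes of the lists and 2363 and 3601 of all genes were called. Timp3 turned to -0.102 with the same total without digestive enzymes and ran from -0.089 to 0.169 with single libraries left out. The same fits gave -0.156 to 0.222 for the Mmp2/Mmp14 ratio, and, relative to the stromal genes, -0.031 to 0.247 for Mmp2 and -0.024 to 0.177 for Mmp14. The cause was not tested. After the data had been seen, limma was also fitted over all genes to log2 values less those of a reference in the same library. Against Timp2 it gave 0.976 for Mmp2 (adjusted p = 0.00128), 0.931 for Mmp14 (0.00415) and 0.656 for Mmp15 (0.038), and against Timp3 1.089, 1.044 and 0.77 (adjusted p = 0.000154, 0.000402 and 0.0192). Against the stromal list Timp2 was at -0.838 (adjusted p = 0.000519) and Timp3 at -0.951 (0.000107), while Mmp2, Mmp14, Mmp15 and Mmp23 were not called, nor was Mmp2 against Mmp14 (0.045, adjusted p = 0.885). These fits called 23% of all genes against Timp2, 21.8% against Timp3, 80% against Mmp14 and 82.1% against the stromal list. The reference enters the value of every gene there, and how this affects the p-values was not tested. The exact tests, which cannot go under 0.10, were the planned ones and stand in the report. Replicate numbers are not known to pair mice (correlations of deviations 0.039, 0.134 and 0.144), and Ptf1a cKO replicate 1 correlated better with control replicate 2 (0.083). With the replicate block 3525 genes and the same number of MMP and TIMP genes (3) were called. With sex as a covariate 3 were called as well. The reads behind single values could not be recovered, and 3 mice per group limit precision.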

Other observations

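Genes that control MMP transcription were also listed. Of 16 transcription factors and TGF-beta ligands, 11 are in the table, 5 were called higher and 1 lower (limma; 17.1% and 16.8% of all genes), with a median log2 fold change of 0.60. Jun, a subunit of AP-1, had 146, 113 and 170.1 normalized counts in controls and 406, 672 and 291 in Ptf1a cKO, a log2 fold change of 1.58 (adjusted p = 0.00265, limma). Fosl2, another AP-1 subunit, rose by 1.16 (adjusted p = 0.00297, limma), and both genes were highest in Ptf1a cKO replicate 2. So were 5 of the 6 MMP and TIMP genes, among them Mmp23 and Timp2, which were not called. Among Ptf1a cKO libraries Jun was lowest in replicate 3, whereas Mmp2 was lowest in replicate 1. Nfkb1 rose by 0.60 (adjusted p = 0.0162, limma) and was highest in replicate 3. Ets2, an ETS factor, fell by 0.86 on the log2 scale (adjusted p = 0.00262, limma).

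The genes whose log2 values over the 6 libraries were most like those of Mmp2 were Tuba1a, Rab11fip1, Add3, Olfml3 and C1qtnf6 (Pearson r between 0.993 and 0.998). With each group's mean taken off they were Unkl, Dnaja3, Rab11fip1, Olfml3 and Large (0.994 to 0.998). Rab11fip1 and Olfml3 appear in both. Olfml3, which encodes a secreted olfactomedin-like protein, had 14.2, 25.4 and 26.1 normalized counts in controls and 89.4, 158 and 124 in Ptf1a cKO, a log2 fold change of 2.33. Like Mmp23, Olfml3 and C1qtnf6 reach the lower limit of the table only in Ptf1a cKO libraries. Their presence among the measured genes depends on their values there, so their rise and likeness to Mmp2 are descriptions only. Mmp14 had r = 0.931 with Mmp2 over the 6 libraries and 0.484 with group means taken off, Timp2 0.625 and 0.552, and Timp3 0.113 and -0.255. These are descriptions over 6 points that share their libraries and scaling.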
